A study of Mus musculus with 10 samples.

Results

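Heat shock proteins and DnaJ co-chaperones were followed in a pair of mouse myeloid cell lines, before and after withdrawal of their growth factor. The genes were taken by symbol from the platform annotation of the array. Symbols that begin with Hspa, Hspb, Hspd, Hspe, Hsph or Hsp9, or with Dnaja, Dnajb or Dnajc and a number, were kept, and Hspg2 and pseudogenes were left out. This gave 73 probes, which were averaged by gene into 67 genes of the 15097 genes with a symbol on the array. By the known place of the protein, 35 act in the cytosol, 13 in the endoplasmic reticulum (ER) and 7 in mitochondria, and 12 belong elsewhere or were not assigned. The cytosolic genes Hspa1b, Hsp90aa1 and Hsp90ab1 were not analysed here.

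FDB1 is a myeloid progenitor line that depends on interleukin 3 (IL-3), and both lines studied are FDB1 cells that carry an added receptor. Y577F cells express FI-Delta Y577F, and FI-Delta cells express FI-Delta, which is a constitutively active form of the beta chain shared by the receptors of IL-3, GM-CSF and IL-5. The Y577F form has phenylalanine in place of a tyrosine of that chain. RNA came from Y577F cells and FI-Delta cells kept for 72 h without factor after 3 washes, and from both lines growing in medium with serum and IL-3 (0 h), with 2 cultures for each of these 4 groups. Pairs of RNAs were hybridised in 2 colours to 10 spotted oligonucleotide arrays. Of these, 2 compared 72 h with 0 h in Y577F cells and 3 did so in FI-Delta cells, while 3 compared Y577F with FI-Delta cells at 0 h and 2 did so at 72 h. Whether each line is a clone or a pool is not given in the sources used here. No group was kept with IL-3 for 72 h, so loss of the factor and time after washing cannot be told apart.

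Values are log2 changes ± standard error of a limma model over 9 hybridisations, in which the dye-swapped arrays 1 and 2 of FI-Delta cells, which carry the same RNA, were averaged. Changes run as 72 h over 0 h, or as Y577F over FI-Delta, and a change was called at an adjusted p under 0.05 over all 20243 features. The deposited ratios were read as log2 of Cy5 over Cy3, which the labels do not state, and with the opposite reading every direction given here would be turned. Because the 4 comparisons form a closed loop, each fitted change draws on arrays of the other comparisons as well as on its own. The arrays share RNA extracts, so the p-values measure the spread between hybridisations of 2 cultures for each group. The median standard error of the 67 genes was 0.095 for the time change of Y577F cells, 0.0987 for that of FI-Delta cells, 0.085 between the lines at 0 h and 0.095 at 72 h. Over all features the turned arrays correlated at 0.63 for time in Y577F cells, at 0.236 to 0.539 for time in FI-Delta cells and at 0.519 between the lines at 72 h. At 0 h, array 1 stood apart, with correlations of 0.0871 and -0.0374 with arrays 2 and 3, which had the opposite dye assignment and correlated with each other at 0.357. Ratios give no expression level, so presence of the labelled cell type could not be checked from its markers.

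Chaperones bind unfolded proteins and keep them from clumping while they fold. HSP70 proteins do so in cycles of ATP hydrolysis that DnaJ proteins (the HSP40 family) start, HSP110 proteins reset the cycle by exchanging nucleotide, and HSP60 with its lid HSP10 forms a folding chamber in the mitochondrial matrix. Cytosolic chaperone genes are classic targets of heat shock factors, which bind arrays of the pentamer NGAAN, and ER chaperone genes are targets of the unfolded protein response, whose factors bind ER stress elements. In blood cells the same proteins carry the load of protein synthesis that comes with growth.

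Elements of both kinds are found in promoters of some members, and they are shown here because members that share an element did not all pass the test. Of the 14 genes called over time, Hspd1 and Hsph1 hold the heat shock element of 3 units described next, Hspa1a and Hspb1 hold its shorter form alone, and 5 (Hspa8, Hspa9, Hspa13, Dnajc5 and Dnajc12) were not matched to a promoter. Of the 67 genes, 56 matched 72 windows in the RefSeq promoter table (GRCm38.p6), each running 250 bases before to 50 bases after a start. A heat shock element of 3 units, in which GAA and TTC alternate with 2 free bases between them, lay on either strand in 0.603% of all 32851 windows and in those of 4 members, Hspd1, Hspe1, Hsph1 and Dnajb6. The shorter form GAANNTTC or TTCNNGAA, which is contained in the longer one, lay in 15.1% of windows and in 13 members, among them Hspa1a and Hspb1. The ER stress element, CCAAT, 9 free bases and CCACG, lay on either strand in 0.119% of windows and in 3 members, Hspa5, Hsp90b1 and Dnajc3, and its second form, ATTGG, 1 free base and CCACG, in 0.0365% and in Dnajb11. A match is a description of the letters and not of binding. In the windows shown, the elements of Hsph1 (bases 37 to 49) and Dnajb11 (bases 8 to 18) lay after the start. Hspd1 and Hspe1 lie head to head. Of the 2 windows of Hspd1, 1 holds the element. This window shares 285 bases with that of Hspe1, so that both show the same element, read from opposite strands. The first sequence gives all 250 bases before the Hspe1 start, and the others give the element with up to 6 bases on each side within the window. Capitals mark the elements.
Hspe1, heat shock elements, chr1:55087898-55088147, plus strand: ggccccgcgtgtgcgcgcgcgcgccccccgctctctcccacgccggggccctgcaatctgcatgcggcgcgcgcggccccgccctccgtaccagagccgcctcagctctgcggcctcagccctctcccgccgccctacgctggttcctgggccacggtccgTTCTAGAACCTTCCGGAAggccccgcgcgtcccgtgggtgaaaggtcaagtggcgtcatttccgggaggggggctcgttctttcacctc
Hspd1, heat shock elements, chr1:55088053-55088082, minus strand: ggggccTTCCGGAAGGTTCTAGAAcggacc
Hsph1, heat shock element, chr5:149636287-149636306, minus strand: tgcagaTTCTGGAAAGTTCt
Dnajb6, heat shock element, chr5:29735846-29735870, plus strand: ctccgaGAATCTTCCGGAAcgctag
Hspa5, ER stress element, chr2:34772019-34772049, plus strand: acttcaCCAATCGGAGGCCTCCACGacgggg
Dnajc3, ER stress element, chr14:118937821-118937851, plus strand: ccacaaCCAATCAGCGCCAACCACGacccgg
Dnajb11, second form of the ER stress element, chr16:22857846-22857868, plus strand: gcggcgATTGGCCCACGcctggc

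In Y577F cells, 6 of the 67 genes rose and 7 fell in 72 h without factor. The called share was 19.4%, against 18.0% of all features tested (9.28% higher and 8.75% lower), so it lay near the background. In FI-Delta cells 1 gene rose and 5 fell, a share of 8.96% against 8.16% of all features (5.19% higher and 2.97% lower). The median change of the 67 genes was -0.07 in Y577F cells, where that of all features was 0.01, and -0.06 in FI-Delta cells, where that of all features was -0.01. In Y577F cells the cytosolic, ER and mitochondrial genes each held calls in both directions. The mitochondrial chaperones held the highest called share of the 4 compartment groups on both time comparisons. The share was 3 of 7 genes (42.9%) in Y577F cells and 4 of 7 (57.1%) in FI-Delta cells. Cytosolic, ER and other genes stood at 20%, 15.4% and 8.33% in Y577F cells and at 2.86%, 7.69% and 0% in FI-Delta cells. With a coefficient for each RNA extract, all 4 mitochondrial calls of FI-Delta cells were lost. On direct arrays alone, those of Dnaja3, Dnajc15 and Hspa9 were lost. The compartments were chosen with earlier results of these data known.

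**Figure D1:**
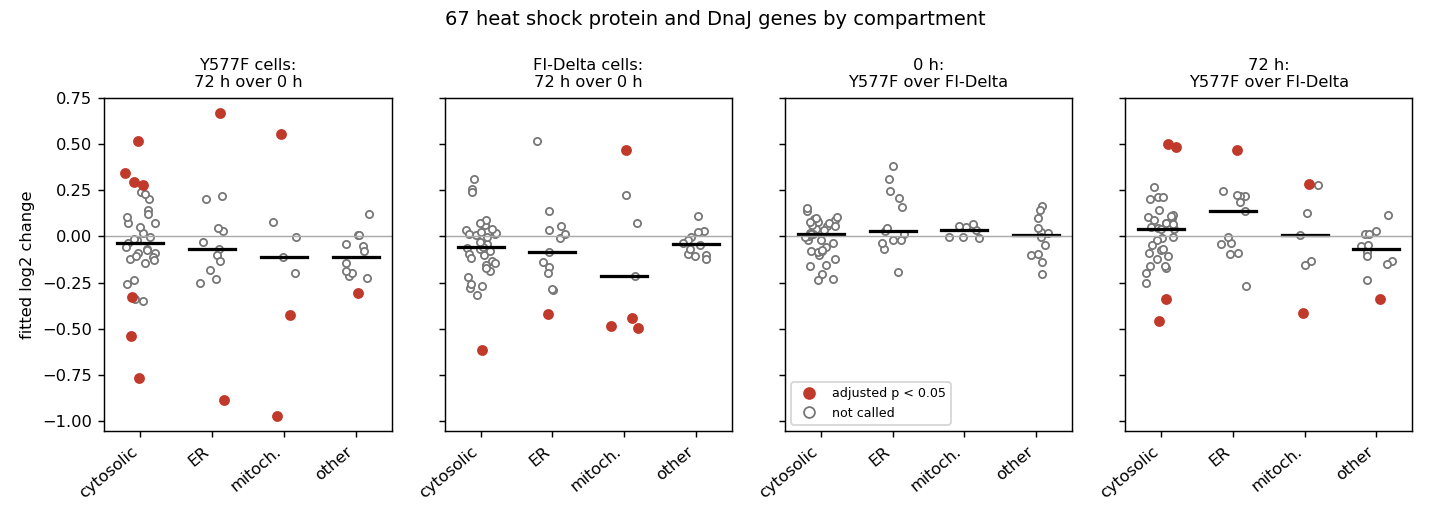
Fitted log2 change of each of the 67 genes (points) by compartment on the 4 comparisons, with the median of each compartment as a bar. Filled points were called at an adjusted p under 0.05 and open points were not; called mitochondrial genes lie on both sides of 0 over time, and no gene was called at 0 h.

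Among mitochondrial members, the matrix chaperonin Hspd1 (HSP60) fell furthest in Y577F cells. On the 2 Y577F time arrays its log2 ratio was -1.08 and -0.79, and on the 3 FI-Delta time arrays it was -0.28, -0.75 and -0.48. It was lower at 72 h on all 5 arrays, and both Y577F values lay below every FI-Delta value. FI-Delta arrays 1 and 2 carry the same RNA, and their values (-0.28 and -0.75) lay further apart than array 2 lay from the nearer Y577F value (-0.79). The fitted change was -0.97 ± 0.09 (adjusted p = 2.32e-05), a 1.96-fold decrease, in Y577F cells and -0.50 ± 0.10 (adjusted p = 0.00734) in FI-Delta cells. The FI-Delta call was lost without time array 3 of that line (-0.469, adjusted p = 0.0592).

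Hspe1 (HSP10), the lid of the HSP60 chamber, shares the promoter shown above with Hspd1. Its ratios were -0.07 and 0.02 in Y577F cells and -0.36, -0.31 and -0.06 in FI-Delta cells. It therefore stayed near 0 on the arrays on which Hspd1 was lowest. The fitted change was 0.00 ± 0.09 (adjusted p = 0.986) in Y577F cells and -0.22 ± 0.09 (adjusted p = 0.206) in FI-Delta cells, neither of which passed the test. The difference between the genes was not tested. With array weights the FI-Delta change passed (-0.286, adjusted p = 0.0112).

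Hspa9 (mortalin), the HSP70 of the matrix, fell by a like amount in both lines. It read -0.47 and -0.45 on the Y577F arrays and -0.37, -0.40 and -0.50 on the FI-Delta arrays, so the ranges of the lines overlapped. The fitted changes were -0.43 ± 0.08 (adjusted p = 0.00246) in Y577F cells and -0.44 ± 0.08 (adjusted p = 0.00554) in FI-Delta cells, with a difference of 0.01 ± 0.09. The Y577F call was lost without time array 1 of that line (-0.349, adjusted p = 0.0567).

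The mitochondrial DnaJ proteins went both ways. Dnaja3 (Tid1), which serves Hspa9, read -0.21 and -0.29 in Y577F cells and -0.52, -0.33 and -0.47 in FI-Delta cells. All 5 values were below 0, and the FI-Delta values were the lower. The change of -0.20 ± 0.08 in Y577F cells did not pass (adjusted p = 0.112), and it fell by 0.49 ± 0.08 in FI-Delta cells (log2 scale, adjusted p = 0.0033). Dnajc15, an inner-membrane J protein linked to the protein import motor, read 0.43 and 0.86 in Y577F cells and 0.50, 0.44 and 0.34 in FI-Delta cells. It was the single member called higher in both lines, at 0.56 ± 0.11 (adjusted p = 0.00409) in Y577F cells and 0.47 ± 0.11 (adjusted p = 0.0268) in FI-Delta cells. The Y577F call was lost without time array 2 (0.372, adjusted p = 0.065), and the FI-Delta call without time array 2 of that line (0.465, adjusted p = 0.0543), 0 h array 1 (0.449, adjusted p = 0.0769) or 72 h array 2 (0.38, adjusted p = 0.0798). Dnajc19, another J protein of the import motor, changed by -0.11 ± 0.10 in Y577F cells and 0.08 ± 0.10 in FI-Delta cells, and Dnajc30 by 0.08 ± 0.18 and 0.22 ± 0.18 in those lines, with no call.

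**Figure D2:**
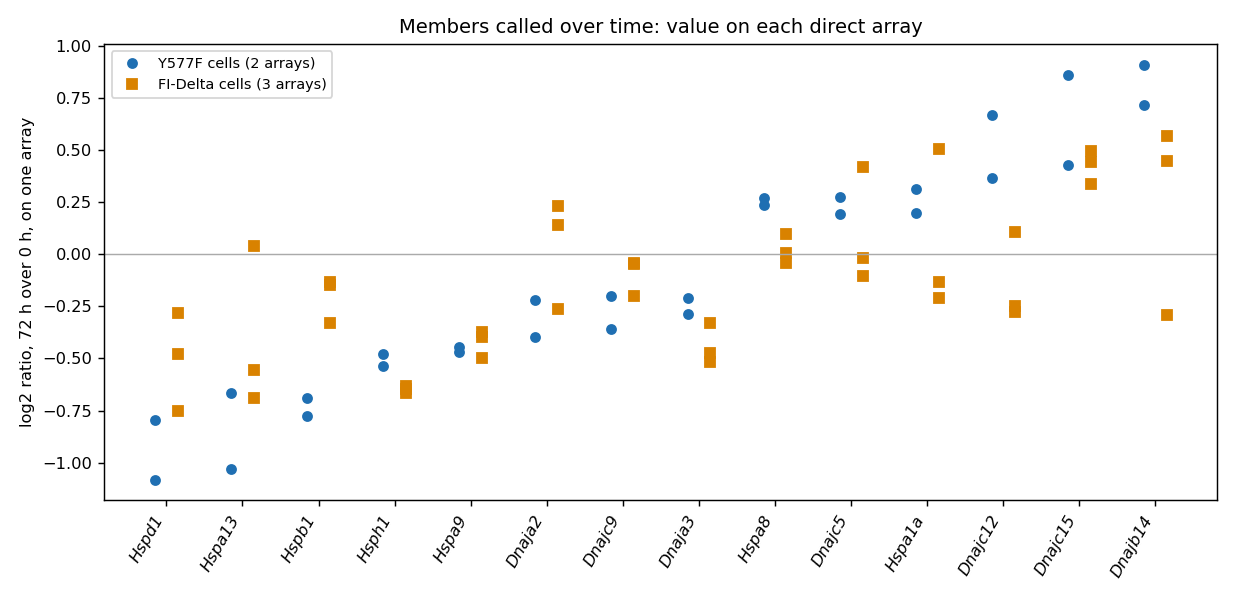
Log2 ratio of 72 h over 0 h on each direct array for the 14 genes called over time in at least 1 line, with Y577F arrays (circles, 2 arrays) left of FI-Delta arrays (squares, 3 arrays). Hspd1, Hspb1, Hsph1, Hspa9, Dnajc9 and Dnaja3 were below 0 on all 5 arrays and Dnajc15 was above 0 on all 5, while the other genes had FI-Delta values on both sides of 0.

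In the ER, 1 of 13 genes rose and 1 fell in Y577F cells, and 0 rose and 1 fell in FI-Delta cells. Hspa13 (Stch), a small microsome-associated HSP70, fell in both lines, with ratios of -1.03 and -0.67 in Y577F cells and 0.04, -0.69 and -0.55 in FI-Delta cells. FI-Delta array 1 thus lay above 0 while its dye swap of the same RNA, array 2, lay at the level of the Y577F arrays. The fitted change was -0.89 ± 0.11 (adjusted p = 0.000164) in Y577F cells and -0.42 ± 0.11 (adjusted p = 0.0437) in FI-Delta cells. The FI-Delta call was lost on leaving out 6 of the 10 arrays in turn, with estimates between -0.541 and -0.32 over the 10.

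Dnajb14, an ER-membrane J protein, read 0.71 and 0.91 in Y577F cells and -0.29, 0.45 and 0.57 in FI-Delta cells. It rose in Y577F cells by 0.67 ± 0.20 (adjusted p = 0.0382), and the 0.52 ± 0.21 of FI-Delta cells did not pass (adjusted p = 0.185). Its standard error was the largest among the called genes, and the Y577F call was lost on leaving out 7 of the 10 arrays, with estimates between 0.429 and 0.852.

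Among the heat shock and DnaJ genes, the classic targets of the unfolded protein response named here gave no call on the averaged probes over time. These are Hspa5, Hsp90b1, Dnajc3, Dnajb11 and Dnajb9. The ER folding and quality control genes outside this set, described below, did hold calls. Of those, 3 rose and 6 fell in Y577F cells, while 0 rose and 7 fell in FI-Delta cells. Hyou1 and Pdia6 fell in both lines. Hspa5 (BiP), the main HSP70 of the ER, changed by -0.25 ± 0.08 (adjusted p = 0.0518) in Y577F cells and -0.29 ± 0.08 (adjusted p = 0.0634) in FI-Delta cells. The change passed in Y577F cells without 72 h array 2 (-0.277, adjusted p = 0.0416), 0 h array 3 (-0.267, adjusted p = 0.0433) or time array 2 of FI-Delta cells (-0.279, adjusted p = 0.0355), and in FI-Delta cells without that last array (-0.357, adjusted p = 0.0397). Hsp90b1 (GRP94), the ER HSP90, changed by -0.14 ± 0.08 and -0.20 ± 0.08 in Y577F and FI-Delta cells, and Dnajc3 (p58IPK), a co-chaperone of BiP that also restrains eIF2-alpha kinases, by -0.18 ± 0.08 and -0.16 ± 0.09. Dnajb11 (ERdj3), a BiP cofactor that binds nascent chains, changed by -0.23 ± 0.09 (adjusted p = 0.115) in Y577F cells and 0.05 ± 0.10 (adjusted p = 0.833) in FI-Delta cells. Dnajb9 (ERdj4), a BiP cofactor that holds the stress sensor IRE1 silent, changed by -0.07 ± 0.08 (adjusted p = 0.651) in Y577F cells and -0.29 ± 0.08 (adjusted p = 0.0607) in FI-Delta cells, which passed without time array 1 of that line (-0.321, adjusted p = 0.0392). With array weights, Hspa5 passed in both lines (-0.255, adjusted p = 0.0311 in Y577F cells, and -0.23, adjusted p = 0.0218 in FI-Delta cells). Hsp90b1 (-0.233, adjusted p = 0.022) and Dnajb9 (-0.33, adjusted p = 0.00294) then passed in FI-Delta cells. Dnajb9 also passed in FI-Delta cells with the dye swap entered separately (-0.316, adjusted p = 0.0121). In the model without weights, the 4 members with either form of the ER stress element in a promoter window had no call over time.

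The averaged value of Hspa5 joins 2 probes that went apart. In the order of the probe names, the first probe read -0.70 and -0.77 in Y577F cells and -0.74, 0.03 and -0.54 in FI-Delta cells, and its transcript signal fell in both lines (-0.66 ± 0.10, adjusted p = 0.000841 in Y577F cells, and -0.43 ± 0.11, adjusted p = 0.0299 in FI-Delta cells). The second probe read 0.20 and 0.07 in Y577F cells and -0.03, -0.05 and -0.04 in FI-Delta cells, and changed by 0.15 ± 0.12 and -0.15 ± 0.13 in those lines without a call. Hspa8 behaved in a like manner, since its first probe rose in Y577F cells by 0.43 ± 0.11 (adjusted p = 0.0223) and its second changed by 0.13 ± 0.08 (adjusted p = 0.31). Dnajc2, a ribosome-associated J protein, had 3 probes, of which 1 fell in Y577F cells (-0.87 ± 0.21, adjusted p = 0.0123) and the others changed by -0.21 ± 0.10 and 0.03 ± 0.12. Which probe reads the transcript of its gene alone was not tested.

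**Figure D3:**
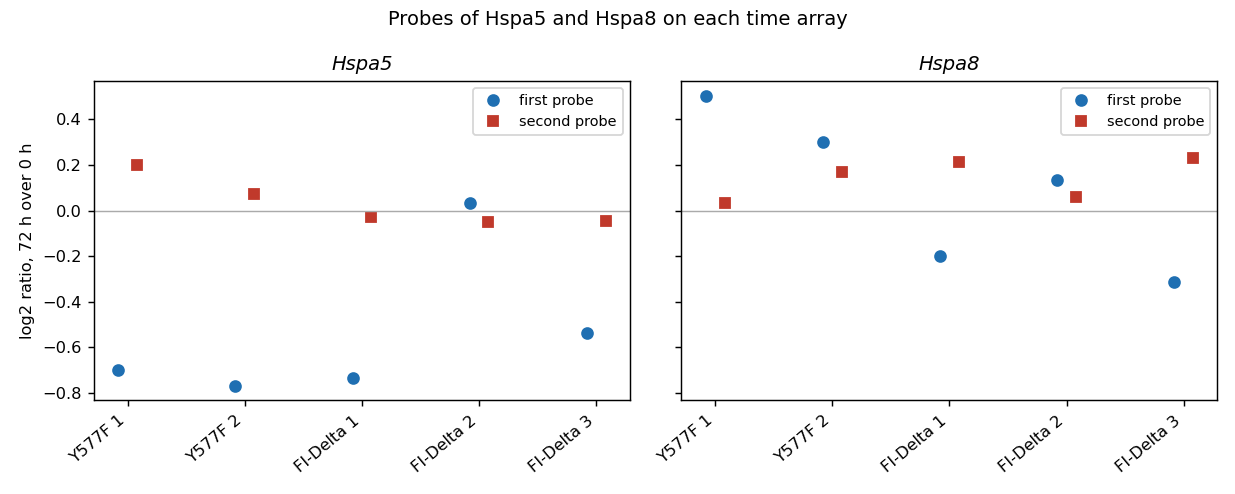
Log2 ratio of 72 h over 0 h for both probes of Hspa5 (left) and of Hspa8 (right) on each time array, with the 2 Y577F arrays left of the 3 FI-Delta arrays. The first Hspa5 probe lies between -0.77 and 0.03 and the second between -0.05 and 0.20.

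In the cytosol, 4 of 35 genes rose and 3 fell in Y577F cells, and 0 rose and 1 fell in FI-Delta cells. Hsph1 (HSP110), the nucleotide exchange factor of cytosolic HSP70, was called in both lines. It read -0.54 and -0.48 in Y577F cells and -0.64, -0.63 and -0.67 in FI-Delta cells, so that it was lower on all 5 arrays and lowest on those of FI-Delta cells. It fell by 0.54 ± 0.09 on the log2 scale in Y577F cells (adjusted p = 0.000924) and by 0.62 ± 0.09 in FI-Delta cells (adjusted p = 0.00111). Both calls held under all 17 alternatives tried. Dnajb6, a J protein that keeps aggregation-prone proteins soluble and also has a heat shock element of 3 units, changed by -0.03 ± 0.10 in Y577F cells and -0.22 ± 0.11 in FI-Delta cells, with no call.

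Hspb1 (HSP25 in mouse), a small heat shock protein that holds unfolded proteins without ATP, fell in Y577F cells. It read -0.78 and -0.69 there and -0.33, -0.13 and -0.15 in FI-Delta cells, and the 2 ranges did not overlap. The fitted change was -0.77 ± 0.12 (adjusted p = 0.000825) in Y577F cells and -0.17 ± 0.12 (adjusted p = 0.512) in FI-Delta cells. Of the other 8 small heat shock proteins and HSP-binding genes, 0 were called over time in either line.

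Constitutive and inducible HSP70 moved less. Hspa8 (HSC70), the constitutive cytosolic HSP70, read 0.27 and 0.23 in Y577F cells and 0.01, 0.10 and -0.04 in FI-Delta cells. It rose in Y577F cells by 0.28 ± 0.09 (adjusted p = 0.0473), against -0.06 ± 0.09 (adjusted p = 0.807) in FI-Delta cells. Hspa1a, an inducible HSP70 whose probe may also detect its near-identical neighbour Hspa1b, read 0.31 and 0.20 in Y577F cells and -0.21, 0.50 and -0.13 in FI-Delta cells. It rose in Y577F cells by 0.34 ± 0.10 (adjusted p = 0.0356), against -0.01 ± 0.10 (adjusted p = 0.969) in FI-Delta cells. Both calls depended on the arrays in the fit, since that of Hspa8 was lost on leaving out any of the 10 arrays (0.237 to 0.362) and that of Hspa1a on leaving out 5 of them (0.288 to 0.467).

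Among the cytosolic DnaJ genes, 2 rose and 1 fell in Y577F cells. Dnajc12, a J protein known as a co-chaperone of aromatic amino acid hydroxylases, read 0.67 and 0.36 in Y577F cells and -0.25, 0.11 and -0.28 in FI-Delta cells, with no overlap. It rose in Y577F cells by 0.51 ± 0.08 (adjusted p = 0.000787), and the -0.13 ± 0.08 of FI-Delta cells did not pass (adjusted p = 0.44). Dnaja2, a general HSP70 partner, read -0.40 and -0.22 in Y577F cells and 0.23, -0.27 and 0.14 in FI-Delta cells, so 1 FI-Delta array lay among the Y577F values. It fell in Y577F cells by 0.33 ± 0.08 on the log2 scale (adjusted p = 0.0142), a call lost without time array 1 (-0.377, adjusted p = 0.0548) or 2 (-0.307, adjusted p = 0.0859) of that line, and changed by 0.01 ± 0.08 in FI-Delta cells. Dnajc5 (cysteine string protein), a J protein of secretory vesicles, rose in Y577F cells by 0.29 ± 0.09 (adjusted p = 0.0418), a call lost on leaving out 9 of the 10 arrays. Dnajc9, a nuclear J protein and histone chaperone that is among the 12 genes of no listed compartment, fell in Y577F cells by 0.31 ± 0.08 on the log2 scale (adjusted p = 0.0272) and changed by -0.07 ± 0.09 in FI-Delta cells. Its Y577F call was lost without time array 1 (-0.275, adjusted p = 0.198) or 2 (-0.368, adjusted p = 0.0509) of Y577F cells, or time array 3 of FI-Delta cells (-0.307, adjusted p = 0.0504). Dnaja1, a farnesylated HSP70 partner, changed by -0.25 ± 0.10 (adjusted p = 0.0923) and -0.28 ± 0.10 (adjusted p = 0.124) in Y577F and FI-Delta cells, and Dnajb1, the main heat-inducible HSP40, by 0.02 ± 0.11 and -0.10 ± 0.12.

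The 54 members without a call over time in Y577F cells lay between -0.35 (Dnajc2) and 0.24 (Dnajb8), and the 61 without a call in FI-Delta cells between -0.32 (Dnajb5) and 0.52 (Dnajb14). Medians by compartment in Y577F cells were -0.03 for cytosolic, -0.07 for ER and -0.11 for mitochondrial genes. In FI-Delta cells they were -0.06, -0.09 and -0.22 for those compartments. The mitochondrial median was -0.21 and 0.02 on the 2 Y577F arrays and -0.28, -0.31 and -0.16 on the 3 FI-Delta arrays, so it was below 0 on 4 of the 5 arrays.

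At 0 h, with both lines growing in IL-3, 0 of the 67 genes were called between Y577F and FI-Delta cells, where 1.42% of all features were (0.934% higher and 0.484% lower). At an unadjusted p under 0.05 there were 9 members (13.4%), against 12.1% of all features. Their changes ran between -0.24 (Hsph1) and 0.38 (Hspa13). Of the 9, 5 were ER genes and each of those was higher in Y577F cells, namely Hspa13 (0.38 ± 0.10, adjusted p = 0.104), Dnajc16 (0.31 ± 0.12, adjusted p = 0.296), Dnajb9 (0.25 ± 0.07, adjusted p = 0.172), Dnajc10 (0.21 ± 0.07, adjusted p = 0.26) and Hsp90b1 (0.16 ± 0.07, adjusted p = 0.41). None of these passed the test. Of all 13 ER genes, 8 were above 0 at 0 h, and the lowest was Dnajb14 (-0.19 ± 0.18). Hspa13 read 0.28, 0.33 and 0.66 on the 3 arrays, and Dnajb9 read 0.20, 0.22 and 0.32. With array weights Hspa13 was called (0.396, adjusted p = 0.0398), and without time array 2 of Y577F cells Dnajc16 was (0.423, adjusted p = 0.0332). Medians were 0.01 for cytosolic, 0.03 for ER and 0.04 for mitochondrial genes. Of the cytosolic members, Hsph1 stood at -0.24 ± 0.08 (adjusted p = 0.215) and Hspa8 at -0.23 ± 0.08 (adjusted p = 0.249).

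At 72 h, 4 of the 67 genes were higher and 4 lower in Y577F than in FI-Delta cells, a share of 11.9% against 12.9% of all features (6.44% higher and 6.45% lower). Of the mitochondrial pair, Hspd1 read -0.39 and -0.52 on the 2 arrays and Hspe1 read 0.35 and 0.25. The genes that share a promoter thus stood on opposite sides of 0 on both arrays. Hspd1 was lower in Y577F cells (-0.42 ± 0.09, adjusted p = 0.0108), a call lost without 72 h array 2 (-0.287, adjusted p = 0.18). The 0.28 ± 0.09 of Hspe1 did not pass (adjusted p = 0.06) but did without time array 3 of FI-Delta cells (0.315, adjusted p = 0.0439). Hspe1 also passed with array weights (0.334, adjusted p = 0.00219) and with the dye swap entered separately (0.29, adjusted p = 0.0445). Dnaja3 was higher in Y577F cells (0.28 ± 0.08, adjusted p = 0.0365), a call lost on leaving out 6 of the 10 arrays. Hspa9 differed by 0.01 ± 0.08 (adjusted p = 0.966).

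Dnajb9 was the single ER member called at 72 h. It read 0.40 and 0.56 on the 2 arrays, and the change of 0.47 ± 0.08 (adjusted p = 0.00243) was held on leaving out any array. It did not pass on direct arrays alone (0.482, adjusted p = 0.0843) or with a coefficient for each RNA extract (0.469, adjusted p = 0.0572). Its BiP partner Hspa5 differed by 0.00 ± 0.08 (adjusted p = 0.979) and Hsp90b1 by 0.23 ± 0.08 (adjusted p = 0.1). The Hspa5 value averages 2 probes that went apart, at -0.15 ± 0.10 and 0.14 ± 0.12, neither of them called. On the 2 arrays the first probe read 0.30 and -0.44 and the second -0.28 and 0.59. Dnajc3 differed by -0.04 ± 0.08 (adjusted p = 0.835) and Dnajb11 by -0.27 ± 0.09 (adjusted p = 0.0818). With array weights Hsp90b1 (0.23, adjusted p = 0.0126), Dnajc10 (0.287, adjusted p = 0.00373) and Dnajc16 (0.32, adjusted p = 0.0172) were called higher. Dnajb11 was then called lower (-0.189, adjusted p = 0.0432). The ER median was 0.14, with 7 of 13 genes above 0, against 0.04 for cytosolic and 0.01 for mitochondrial genes.

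In the cytosol, Dnajc12 read 0.51 and 0.46 at 72 h and was higher in Y577F cells by 0.49 ± 0.08 (adjusted p = 0.00155). This call was held on leaving out any array, and was lost on direct arrays alone (0.485, adjusted p = 0.0787) and with a coefficient for each RNA extract (0.491, adjusted p = 0.0628). Dnajb5, a member of the HSP40 family, read 0.45 and 0.85 and was higher by 0.50 ± 0.13 (adjusted p = 0.0227). Its call was lost without 72 h array 1 (0.547, adjusted p = 0.0888) or 2 (0.211, adjusted p = 0.35). Hspb1 read -0.54 and -0.44 and was lower by 0.46 ± 0.12 on the log2 scale (adjusted p = 0.0263), a call lost without 72 h array 1 (-0.421, adjusted p = 0.166) or 2 (-0.446, adjusted p = 0.17). Hspa14, a ribosome-associated HSP70, read -0.41 and -0.27 and was lower (-0.34 ± 0.09, adjusted p = 0.0273), a call lost on leaving out 4 of the 10 arrays. The nuclear Dnajc9 read -0.26 and -0.47 and was also lower (-0.34 ± 0.08, adjusted p = 0.0222), a call lost without 72 h array 1 (-0.405, adjusted p = 0.061) or 2 (-0.227, adjusted p = 0.266). Of the main cytosolic HSP70 genes, Hspa8 differed by 0.11 ± 0.09 and Hspa1a by 0.20 ± 0.10, and neither was called.

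**Figure D4:**
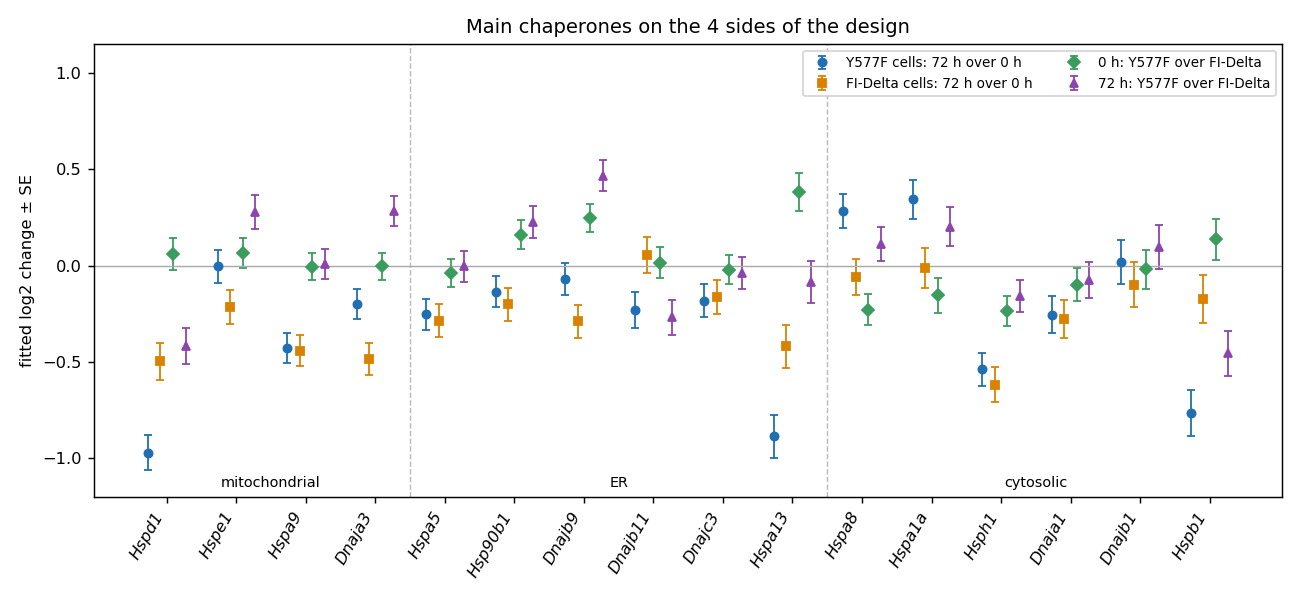
Fitted log2 change ± standard error of 16 chaperone genes on the 4 comparisons, grouped as mitochondrial, ER and cytosolic; symbols give the comparison, with the time changes of Y577F cells (circles) and FI-Delta cells (squares) left of the line comparisons at 0 h (diamonds) and 72 h (triangles). Hspd1 lies at -0.97 in Y577F cells while its promoter partner Hspe1 lies at 0.00, and Dnajb9 lies at 0.47 between the lines at 72 h.

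The same model tested whether the 72 h change differed between Y577F and FI-Delta cells. The difference was called in 5 members (1 positive, 4 negative), a share of 7.46% against 9.24% of all features (4.33% positive and 4.91% negative). The difference was positive for Dnajc12 (0.65 ± 0.09, adjusted p = 0.0012), and this call was the single one of the 5 held on leaving out any array. It was lost on direct arrays alone (0.691, adjusted p = 0.143) and with a coefficient for each RNA extract (0.68, adjusted p = 0.0554), as were the other 4. It was negative for Hspb1 (-0.59 ± 0.14, adjusted p = 0.0197), Hspd1 (-0.47 ± 0.11, adjusted p = 0.0166), Hspa13 (-0.47 ± 0.13, adjusted p = 0.0395) and Dnaja2 (-0.34 ± 0.09, adjusted p = 0.04), each of which had its lower 72 h change in Y577F cells. The Hspd1 call was lost without 72 h array 2 (-0.358, adjusted p = 0.12). That of Hspb1 was lost without 0 h array 1 (-0.561, adjusted p = 0.0841), 72 h array 1 (-0.57, adjusted p = 0.0559) or 72 h array 2 (-0.583, adjusted p = 0.0976), that of Hspa13 on leaving out 8 of the 10 arrays and that of Dnaja2 on leaving out 9. Hspa13 was 1 of 2 called members in which both lines fell, and at 0 h it stood at 0.38 in Y577F over FI-Delta cells. The first probe of Hspa8 also differed between the lines (0.66 ± 0.13, adjusted p = 0.00899), while its second did not pass (0.02 ± 0.09, adjusted p = 0.924).

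Genes that work with these chaperones were counted in 6 lists. Among 18 partners of HSP90 and HSP70, 1 rose and 6 fell in Y577F cells and 1 rose and 2 fell in FI-Delta cells, with a median of -0.11 in both. The called share of this list was 38.9% in Y577F cells, where 18.0% of all features were called, and 16.7% in FI-Delta cells, where 8.16% were. Of the peptidyl-prolyl isomerases of HSP90 complexes, Ppid fell by 0.98 ± 0.09 on the log2 scale in Y577F cells (adjusted p = 2.62e-05), against -0.34 ± 0.10 (adjusted p = 0.0572) in FI-Delta cells. Fkbp4 fell in both lines, by 0.94 ± 0.10 in Y577F cells (adjusted p = 6.73e-05) and by 0.47 ± 0.11 in FI-Delta cells (adjusted p = 0.018). Fkbp5, of the same class, changed by -0.06 ± 0.10 (adjusted p = 0.766) in Y577F cells and 0.06 ± 0.10 (adjusted p = 0.843) in FI-Delta cells. The FI-Delta call of Fkbp4 was lost without time array 2 (-0.419, adjusted p = 0.0678) or 3 (-0.398, adjusted p = 0.145) of that line or without 0 h array 1 (-0.433, adjusted p = 0.0612). Stip1, which bridges HSP70 and HSP90, fell in Y577F cells (-0.52 ± 0.11, adjusted p = 0.00678), a call lost without time array 1 of that line (-0.32, adjusted p = 0.153). Bag4, an HSP70 nucleotide exchange factor, was the single partner that rose, by 1.27 ± 0.10 in Y577F cells (adjusted p = 6.4e-06) and 0.57 ± 0.11 in FI-Delta cells (adjusted p = 0.00574).

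Of the 8 subunits of TRiC, the cytosolic chaperonin that folds actin and tubulin, 4 fell in Y577F cells (50%) and 2 in FI-Delta cells (25%), and 0 rose in either line. Of all features, 8.75% were lower in Y577F cells and 2.97% in FI-Delta cells. The FI-Delta calls, Tcp1 and Cct5, were lost on leaving out 8 and 7 of the 10 arrays. Cct7 stood at -0.69 ± 0.11 and Cct5 at -0.62 ± 0.10 in Y577F cells. Of the 6 subunits of prefoldin, which hands substrates to TRiC, 0 were called over time. At an unadjusted p under 0.05 by limma there were 3 of 6 (50%) in Y577F cells, where 29% of all features were. In FI-Delta cells there was 1 of 6 (16.7%), where 19.8% of all features were. Among 15 partners and proteases of mitochondrial chaperones, 6 fell in Y577F cells (40%) and 1 in FI-Delta cells (6.67%), and 0 rose. The matrix protease Lonp1 (-0.76 ± 0.11, adjusted p = 0.000473) and the import motor subunit Pam16 (-0.62 ± 0.08, adjusted p = 0.000285) moved most in Y577F cells, and Clpp was the gene called in FI-Delta cells (-0.32 ± 0.08, adjusted p = 0.0368). The Clpp call was lost on leaving out 6 of the 10 arrays.

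In the list of 22 ER folding and quality control genes, 3 rose and 6 fell in Y577F cells (40.9% called, against 18.0% of all features), while 0 rose and 7 fell in FI-Delta cells (31.8% called, against 8.16%). Hyou1 (GRP170), the exchange factor of BiP, fell by 0.35 ± 0.10 on the log2 scale in Y577F cells (adjusted p = 0.0353) and by 0.86 ± 0.11 in FI-Delta cells (adjusted p = 0.000391). The disulfide isomerase Pdia6 fell by 0.72 ± 0.08 in Y577F cells (adjusted p = 0.000111) and by 0.49 ± 0.09 in FI-Delta cells (adjusted p = 0.00451). Genes that rose in Y577F cells were Sel1l and Edem1, which serve disposal of misfolded ER proteins, and Serp1, at 0.34 to 0.36. Among 8 stress factors and sensors, 1 rose and 2 fell in Y577F cells, and 2 rose and 1 fell in FI-Delta cells. The called share was 37.5% in each line, against 18.0% and 8.16% of all features. Atf6 rose in both lines (0.85 ± 0.09 in Y577F cells, adjusted p = 7.29e-05, and 0.96 ± 0.10 in FI-Delta cells, adjusted p = 9.72e-05). In FI-Delta cells Atf5 rose (0.69 ± 0.11, adjusted p = 0.00212) and Ern1 fell (-0.53 ± 0.10, adjusted p = 0.00835). The Ern1 call was lost without time array 3 of that line (-0.467, adjusted p = 0.0761). Atf4, the factor of the integrated stress response, fell by 1.16 ± 0.09 in Y577F cells (adjusted p = 3.58e-06) and changed by -0.02 ± 0.09 in FI-Delta cells. Ddit3 fell in Y577F cells (-0.40 ± 0.11, adjusted p = 0.024), a call lost on leaving out 2 of the 10 arrays. Between the lines at 0 h, Atf4 (0.56 ± 0.08, adjusted p = 0.004) and Ddit3 (0.59 ± 0.10, adjusted p = 0.0119) were higher in Y577F cells. At 72 h Atf4 was lower in Y577F cells (-0.58 ± 0.09, adjusted p = 0.0008) and Ern1 was higher. The 72 h call of Ern1 was lost without 72 h array 1 (0.501, adjusted p = 0.0543) or 2 (0.471, adjusted p = 0.0776). The 0 h call of Ddit3 was lost without any 1 of the 3 arrays at 0 h (0.494 to 0.557, adjusted p of 0.0629 to 0.281).

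Markers of mature cells moved with the same comparisons. Over 72 h, 4 of 5 macrophage genes rose in Y577F cells, with a median of 2.28 and a range of 0.24 to 3.14, and 4 of 5 in FI-Delta cells, with a median of 0.91 and a range of 0.08 to 1.49. Of 6 granulocyte genes, 1 rose and 2 fell in Y577F cells (median -0.23, range -0.85 to 0.93) and 5 rose in FI-Delta cells (median 1.73, range 0.09 to 2.45). Between the lines, 5 of 6 granulocyte genes were lower and 2 of 5 macrophage genes higher in Y577F cells at 0 h, and 6 of 6 were lower and 5 of 5 higher at 72 h. Of 5 mast cell and basophil genes, Cpa3 and Fcer1a were called higher in Y577F cells at both times. At 72 h they stood at 2.295 and 2.316, with a median of 0.22 over the 5 genes, and 1 of 2 erythroid genes was lower. Over 72 h, mast cell and basophil genes fell in 2 of 5 cases and rose in 1 in Y577F cells, and fell in 3 of 5 in FI-Delta cells. In each line 1 of 2 erythroid genes fell, and 0 of 3 lymphoid genes were called. The part of these changes in cell make-up in the chaperone values was not tested, and in bulk RNA fewer cells of a type and less RNA per cell cannot be told apart.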

How the data were processed

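Each two-colour array was deposited as 1 log2 ratio per spot, which the authors made with limma, per the submitters' processing notes. For the limma version, the background correction and the normalization, the sources used here give nothing. Base 2 and the direction Cy5 over Cy3 were assumed from limma's usual output, and signs were turned by the titles. Intensities were not analysed here. Precision is limited by how many arrays there are.

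The 23040 spots included 1243 control spots, which were dropped. Among the other 21797 probes, 16651 had 1 symbol, 137 several and 5009 none. Probes of 1 gene were averaged, which gave 20243 features with 0 missing values. Each feature was fitted in limma 3.58.1 (R 4.3.3) by a model with 3 coefficients and a dye term (5 residual and 6.34 prior degrees of freedom), after averaging the arrays of the same FI-Delta RNA. Tests were two-sided, with Benjamini-Hochberg adjustment over all features. The procedure was tested on simulated data. The dye term was called in 146 features and in 0 of the 67 genes.

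Named genes are the called members, the main chaperones and up to 4 called genes of each partner list. Where a list count is given with fewer names, the rest are in the count. The members, lists and compartments were chosen with earlier results of these data known. The alternatives were no dye term, the dye swap entered separately, direct arrays alone, array weights, equal spread, single probes, a coefficient for each RNA extract and each array left out. On arrays with Y577F RNA in Cy5, replicate numbers are given to opposite lines. For the coefficients of RNA extracts, numbers were therefore read from the titles. On arrays of both lines, the smaller number was taken as FI-Delta and the larger as Y577F. The main model used these numbers only to find the arrays of the same FI-Delta RNA.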

Additional observations from a re-analysis of the deposited data

Results flagged for a closer look

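Of the 144 heat shock, DnaJ and partner genes, 21 (14.6%) differed between Y577F and FI-Delta cells in their 72 h change, against 9.24% of all 20243 features. The test was of the difference within the limma model (adjusted p under 0.05). The 67 heat shock and DnaJ genes alone were at 7.46%, below the share of all features. Members and partner lists were chosen with earlier results of these data known, so the higher share of the 144 genes is no independent result. Of these 21 calls, 5 held on leaving out any array (Dnajc12, Bag4, Ppid, Syvn1 and Atf4), 20 were lost on direct arrays alone and 19 with a coefficient for each RNA extract. Among the heat shock and DnaJ genes, the change in Y577F cells minus that in FI-Delta cells was 0.645 for Dnajc12 (changes of 0.514 in Y577F and -0.131 in FI-Delta cells), -0.592 for Hspb1 (-0.765 in Y577F and -0.173 in FI-Delta cells), -0.475 for Hspd1 (-0.971 in Y577F and -0.497 in FI-Delta cells), -0.467 for Hspa13 (-0.887 in Y577F and -0.42 in FI-Delta cells) and -0.34 for Dnaja2 (-0.327 in Y577F and 0.0136 in FI-Delta cells).

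Among partners of cytosolic chaperones the difference was 0.696 for Bag4, -0.639 for Ppid, -0.469 for Fkbp4, -0.562 for Cct7, -0.343 for Cct8 and -0.372 for Pfdn4. The calls of Cct8 and Pfdn4 were each lost on leaving out 8 of the 10 arrays, that of Fkbp4 on leaving out 6 and that of Cct7 on leaving out 2. Bag4 rose further in Y577F cells (1.27, against 0.575 in FI-Delta cells), and Cct7 stood at -0.686 in Y577F and -0.123 in FI-Delta cells. Among mitochondrial partners, the import channel subunit Timm17a differed by -0.488, the import motor subunit Pam16 by -0.456 and the intermembrane-space chaperone Timm9 by -0.413, each with its lower change in Y577F cells. These calls were lost on leaving out 4 (Timm17a), 2 (Pam16) and 7 (Timm9) of the 10 arrays.

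Of 22 ER folding genes, 3 had a called difference, at 0.616 for Syvn1, 0.516 for Hyou1 and 0.446 for Sdf2l1, and each of these had its lower change in FI-Delta cells. The Hyou1 call was lost on leaving out 3 arrays and that of Sdf2l1 on leaving out 5. Of the stress factors and sensors, Atf4 differed by -1.14 (-1.16 in Y577F and -0.0196 in FI-Delta cells), Ddit3 by -0.615, Atf5 by -0.516 and Ern1 by 0.498. Leaving out 1 array ended the Ddit3 call in 2 cases of 10, the Atf5 call in 4 and the Ern1 call in 3. Groups of 2 or 3 arrays are too small to look for single outlying arrays.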

How the results depend on the processing

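Of the 32 calls made for heat shock and DnaJ genes in 5 comparisons, 6 held in all 17 alternatives, namely Hsph1 over time in both lines and Hspd1, Hspa13, Hspb1 and Dnajc12 over time in Y577F cells. Single probes, where the probe of lowest p stood for each gene, ended 0 of the 32 calls. That alternative was hardly a test of these genes, which have 1 probe each. On leaving out any 1 of the 10 arrays, 11 calls held. Of the 32, 21 were lost on direct arrays alone and 24 with a coefficient for each RNA extract. The 144 gene-by-comparison results followed were called members, main chaperones and up to 4 called genes of each partner list. Under these alternatives 2084 values kept their side of the threshold, 339 lost the call and 25 gained it. Of the called results, 0 turned their sign. Turns of sign in results without a call were not counted. Over all 67 genes, calls were gained 37 times outside the single-probe alternative, 17 of them with array weights. Array intensities were not used, so low signal could not be told from true small changes, and the causes of the shifts below were not tested.

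Numbers of members called higher and lower are given in that order. Over time in Y577F cells (6 and 7), 3 were higher without the dye term, on direct arrays alone and with equal spread, and with the replicate block (a coefficient for each RNA extract, which rests on the titles) 3 and 4 were called. Over time in FI-Delta cells (1 and 5), direct arrays alone gave 0 and 2, array weights 2 and 10, and the replicate block 0 and 1. At 0 h (0 and 0), array weights gave 1 higher. At 72 h (4 and 4), direct arrays alone gave 1 and 0, array weights 8 and 8, and the replicate block 0 and 0. For the difference of the changes (1 and 4), direct arrays alone and the replicate block gave 0 and 0, and single probes gave 2 positive. The blocked counts over all features were also lower, with 986 and 735 over time in Y577F cells against 1878 and 1771 without the block. Array weights raised the counts over all features as well, to 2720 and 2817 at 72 h against 1304 and 1305 in the main model. Over time in FI-Delta cells they gave 2108 and 1678 features, against 1051 and 601. The members gained with array weights are thus no result about chaperones. Direct arrays alone gave 521 and 497 features at 72 h. Fewer residual degrees of freedom go with the block and with direct arrays alone.

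Leaving out 1 array in turn, members higher ranged from 1 to 5 over time in Y577F cells, 0 to 1 in FI-Delta cells, 0 to 1 at 0 h, 2 to 4 at 72 h and 1 to 3 for the difference, and members lower from 4 to 8, 3 to 6, 0 to 0, 0 to 5 and 0 to 3 in that order of comparisons.

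The median of ER members over time in FI-Delta cells (-0.0868) was -0.0356 with the dye swap entered separately. That of cytosolic members over time in Y577F cells (-0.0341) was -0.0106 on direct arrays alone. The ER median at 72 h (0.137) was 0.129 without the dye term, 0.131 with the dye swap entered separately, 0.101 on direct arrays alone, 0.143 with array weights, 0.123 with equal spread and 0.141 with the replicate block. Without 1 array, medians of cytosolic, ER and mitochondrial members ranged from -0.0449 to 0.0295, -0.115 to -0.0565 and -0.155 to -0.0946 over time in Y577F cells. In FI-Delta cells they ranged from -0.0775 to -0.0138, -0.133 to -0.0286 and -0.307 to -0.182. At 0 h they ranged from -0.032 to 0.0136, 0.0172 to 0.08 and -0.000242 to 0.0773, and at 72 h from 0.00221 to 0.0551, 0.0795 to 0.165 and -0.0259 to 0.205. The cytosolic medians over time in Y577F cells and at 0 h and the mitochondrial medians at 0 h and 72 h thus changed sign.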
